A study of Mus musculus with 24 samples.

Results

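Expression of 8 type I interferon response genes was examined in epididymal white adipose tissue (eWAT) of mice with and without *Lama4* in their adipocytes. The genes are *Isg15*, *Irf7*, *Ifit1*, *Ifit3*, *Oasl2*, *Rsad2*, *Usp18* and *Bst2*. They were chosen by symbol from textbook knowledge of the pathway, with earlier results of these data known. All 8 are among the 16730 genes counted, and all 8 passed the filter on low counts that left 15020 genes to test. RNA came from 24 adult male mice, with 6 mice per group. The *Lama4* fl/fl and *Lama4* AKO mice of the chow-fed groups ate a regular diet for 20 weeks, and HFD-fed *Lama4* fl/fl mice and HFD-fed *Lama4* AKO mice ate a diet with 45% fat for 20 weeks. All mice carried the floxed *Lama4* allele. The AKO mice also carried Cre recombinase under the adiponectin promoter, which acts in adipocytes, so endothelial and other stromal cells of the pad kept an intact gene. A fl/fl littermate is the control, and a control with Cre but no floxed allele is not analysed here.

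Type I interferons are secreted when cells sense foreign or misplaced nucleic acid. They bind the receptor IFNAR, whose kinases JAK1 and TYK2 lead to the assembly of the transcription factor complex ISGF3, which binds interferon-stimulated response elements (ISRE) in promoters and switches on a shared set of genes. Interferon gamma, a product of T cells and natural killer cells, acts through another receptor and through gamma-activated sites (GAS) in promoters, and its targets overlap with those of type I interferon. In obese fat the response genes are known from adipocytes as well as from macrophages and lymphocytes. RNA of a whole fat pad was measured, so fewer cells of a type and less RNA per cell cannot be told apart in any value below.

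The 160 bases before the transcription start are shown for 5 of the genes, since the response element is the feature through which ISGF3 acts on such genes, and *Irf7* is included as a gene without a match. The sequences are those of RefSeq on GRCm38.p6, written 5′ to 3′ on the strand of the gene. Capitals mark each match to the core of the response element, GAAANNGAA on either strand, with overlapping matches joined.
*Isg15*, chr4:156200819-156200978, minus strand: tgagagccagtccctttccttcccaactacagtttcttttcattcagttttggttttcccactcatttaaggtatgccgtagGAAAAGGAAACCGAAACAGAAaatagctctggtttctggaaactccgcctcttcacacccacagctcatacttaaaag
*Ifit1*, chr19:34640729-34640888, plus strand: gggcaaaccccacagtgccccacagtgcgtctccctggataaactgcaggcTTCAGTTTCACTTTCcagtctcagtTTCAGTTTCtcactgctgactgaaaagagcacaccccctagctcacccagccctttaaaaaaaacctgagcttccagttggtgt
*Ifit3*, chr19:34583369-34583528, plus strand: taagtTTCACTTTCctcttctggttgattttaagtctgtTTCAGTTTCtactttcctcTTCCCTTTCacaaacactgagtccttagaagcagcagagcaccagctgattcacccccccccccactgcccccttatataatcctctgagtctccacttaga
*Bst2*, chr8:71537473-71537632, minus strand: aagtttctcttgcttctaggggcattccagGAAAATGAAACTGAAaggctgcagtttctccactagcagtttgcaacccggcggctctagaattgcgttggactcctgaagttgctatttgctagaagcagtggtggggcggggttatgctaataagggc
*Irf7*, chr7:141266425-141266584, minus strand: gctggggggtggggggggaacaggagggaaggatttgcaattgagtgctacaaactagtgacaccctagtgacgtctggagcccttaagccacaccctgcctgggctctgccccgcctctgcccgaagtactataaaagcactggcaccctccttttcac

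RefSeq promoter windows, from 250 bases before to 50 bases after the start, were found for 7 of the 8 genes, all but *Usp18*. The core was matched 3 times in *Isg15*, 3 times in *Ifit1*, 3 times in *Ifit3*, 2 times in *Bst2* and 1 time in *Rsad2*. It was not matched in the windows of *Irf7* and *Oasl2*. Matches in *Isg15* began at -78, -72 and -66 relative to the start and overlap one another, as do the pair in *Bst2* at -130 and -124 and the first pair in *Ifit1* at -109 and -103. At least 1 match was present in 5 of these 7 windows, and in 8.56% of 32851 windows of the same length over all genes. At least 2 matches were present in 4 of the 7, and in 0.624% of all windows. The letters TTCNNNGAA of a gamma-activated site were found in *Bst2* at -136, overlapping the response element match there, in no other of the 7 and in 8.3% of all windows. These are matches of letters and carry no test.

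Libraries held 5579590 to 18764516 counts. In the first principal component, which took 45.8% of the variance, HFD-fed fl/fl mice 1 and 4 lay near opposite ends. The study set aside outlier mice without naming them in its text; 5 libraries (chow-fed fl/fl mouse 3, chow-fed AKO mouse 5 and HFD-fed fl/fl mice 3, 4 and 6) are taken here to be those, from the points it plotted. Values without them are given as those of the 19 mice. Tags of *Lama4* lay between 41.2 and 196 CPM (counts scaled to a common library total) in chow-fed fl/fl, 64.2 and 133 in chow-fed AKO, 32.4 and 135 in HFD-fed fl/fl and 36.4 and 92.5 in HFD-fed AKO mice. Since the assay reads the 3′ end of transcripts, downstream of the deleted exon, these values do not check the deletion. All 7 adipocyte markers listed were detected in every mouse.

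Levels are given as CPM after TMM scaling, the share of each library's counts that fell on a gene. The study's criteria for a call were kept: a change of 1.5-fold or more in either direction, a nominal p no higher than 0.001, and 2 CPM or more on average in whichever group was higher. They were applied to edgeR's quasi-likelihood test fitted to all genes and 24 mice. Adjusted p-values are those of edgeR with the Benjamini-Hochberg method over all genes tested. Across the 8 genes the range over mice was widest for *Bst2*, 12.9 times from the lowest to the highest mouse, and between 2.65 and 4.87 times for the other 7. Behind these values stood 12 to 106 counts per library for *Usp18*, the most thinly counted, and 45 or more for each of the others.

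**Figure D1:**
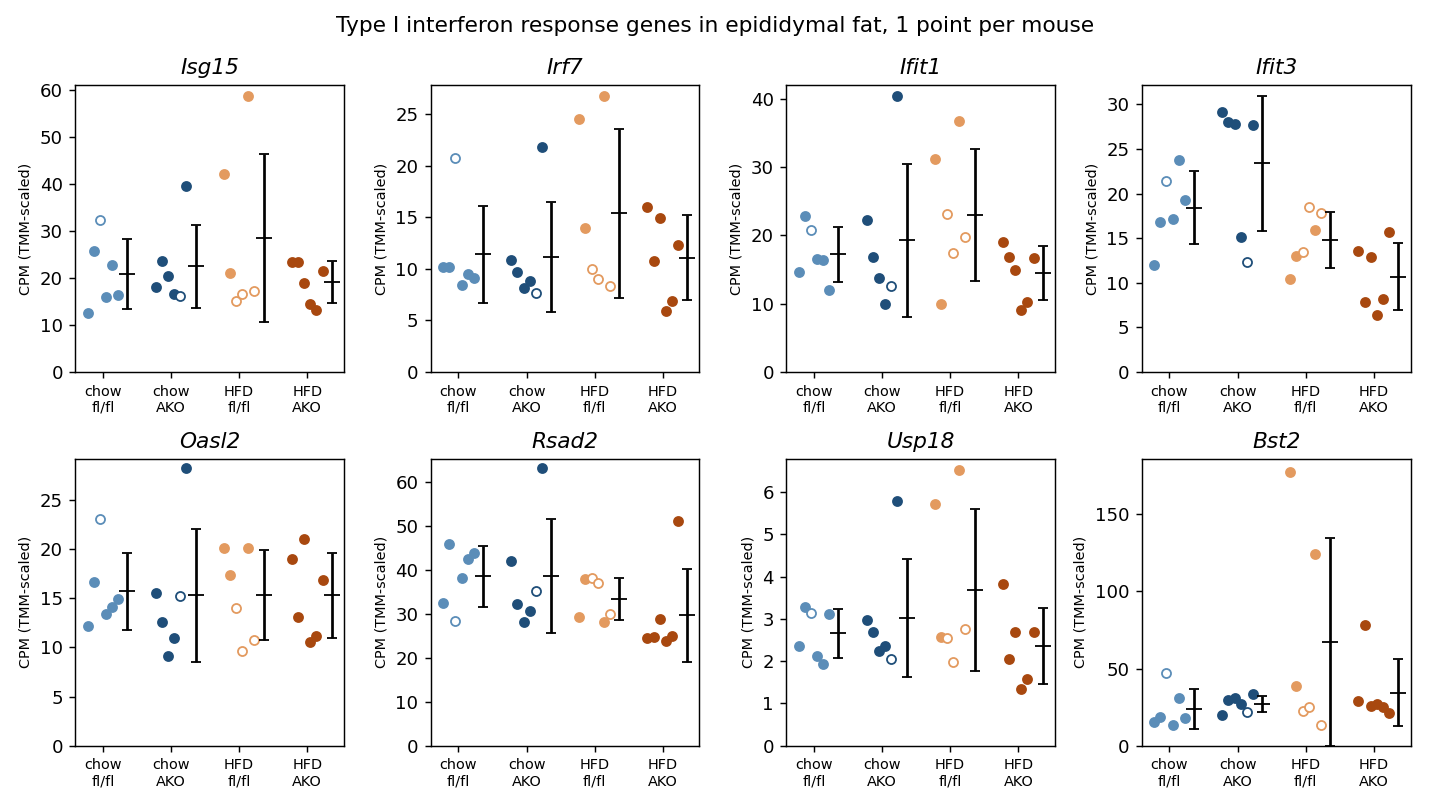
CPM (TMM-scaled) of each gene in each of the 24 mice by group, with the mean and SD of 6 mice as black bars and the 5 libraries left out of the 19 mice as open circles. *Ifit3* is lowest in HFD-fed AKO mice, at 6.34 to 15.7 CPM, and *Bst2* reaches 177 and 124 CPM in 2 HFD-fed fl/fl mice.

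With all 24 mice, *Ifit3* was the 1 gene of the 8 called for diet, in AKO mice and in the average over genotypes. *Ifit3*, chr19:34583531-34588731 on the plus strand, encodes a cytoplasmic protein of the IFIT family that acts together with IFIT1 on foreign RNA. In chow-fed AKO mice 1 to 6 it measured 29.2, 28, 27.8, 15.1, 12.3 and 27.7 CPM. In HFD-fed AKO mice 1 to 6 it measured 13.6, 7.88, 12.9, 6.34, 8.19 and 15.7 CPM. Chow-fed mice 1, 2, 3 and 6 stood above every HFD-fed mouse, and chow-fed mice 4 and 5 lay within the range of the HFD-fed mice, so the groups overlapped. The mean fell from 23.4 ± 7.55 to 10.7 ± 3.76 CPM (SD, n = 6 each), a 2.18-fold lower level on HFD. The log2 fold change was -1.12 ± 0.242 (SE), with an adjusted p of 0.0126 (edgeR). An exact permutation test over these mice gave p = 0.0152. Adjusted over the 8 genes in the diet and genotype comparisons, the permutation p was 0.486. Leaving out each library in turn kept the call, at log2 fold changes of -1.27 to -1.02. In the 19 mice it was -1.25, in a comparison that then called 15.7% of 14863 genes.

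One called gene of 8 has to be read against a background in which the same comparison called many genes. In AKO mice, HFD against chow called 4.12% of the 15020 genes tested, 2.83% as lower on HFD. With limma-voom the split of these calls was 307 higher and 297 lower, and with edgeR 194 and 425. The neighbours of *Ifit3* in the *Ifit* cluster of chromosome 19 were lower to different extents. *Ifit2*, upstream on the same strand, was called at -1.30 ± 0.321 (adjusted p = 0.0174, edgeR). *Ifit3b*, the nearest relative of *Ifit3*, was at -0.90 ± 0.272, with an adjusted p of 0.0284 in edgeR, and missed the nominal threshold of the call. *Ifit1*, further downstream, was at -0.42 ± 0.309. The longest annotated transcripts of *Ifit3* and *Ifit3b* were 83.2% identical over their whole length, and 55.3% over their last 300 bases, the end from which tags are read; between *Ifit3* and *Ifit1* the last 300 bases were 59% identical. How reads shared by *Ifit3* and *Ifit3b* were counted is not given in the sources used here.

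Markers of several cell types moved in the same comparison. The summed level of 7 adipocyte markers was 14600 to 36100 CPM in chow-fed AKO mice and 8380 to 23300 CPM in HFD-fed AKO mice, all 7 were lower on HFD, 1 of them called (*Lep*, -2.10), and none was at 0 in any mouse. The 9 macrophage markers summed to 2580 to 9290 CPM and 7890 to 13500 CPM, all 9 higher on HFD and none called, with none at 0. The 5 endothelial markers summed to 310 to 682 CPM and 208 to 443 CPM, all 5 lower on HFD at a nominal p under 0.05 (median -0.79) and none called. Of 4 mesothelial markers 3 were lower at a nominal p under 0.05 (median -1.71) and 1 was called, with sums of 24 to 127 CPM and 8.75 to 44.9 CPM. The 5 red blood cell markers summed to 1410 to 4990 CPM and 1500 to 4440 CPM. Over the 24 mice, deviations of *Ifit3* from its group means had r = 0.58 and rho = 0.61 with those of the red blood cell sum (adjusted permutation p = 0.0252 and 0.0197) and r = 0.49 and rho = 0.53 with those of the adipocyte sum (adjusted permutation p = 0.0461 and 0.0327). The part of any of these in the difference of *Ifit3* was not tested.

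In the other comparisons within 1 genotype or diet *Ifit3* did not pass. Chow-fed fl/fl mice had 12, 18.3 and 23.8 CPM (lowest, median, highest) and HFD-fed fl/fl mice had 10.4, 14.7 and 18.5 CPM. These groups overlapped over most of their range, with a log2 fold change of -0.31 ± 0.238 (adjusted p = 0.703, edgeR). Whether the diet response differed between genotypes was tested with the interaction term, which was -0.81 ± 0.337 for *Ifit3* (adjusted p = 0.276, edgeR). The diet response was thus called in AKO mice, but a difference from that of fl/fl mice was not shown. By mean level the 4 groups were ordered chow-fed AKO, chow-fed fl/fl, HFD-fed fl/fl and HFD-fed AKO, and each group overlapped with its neighbours. Averaged over genotypes, HFD lowered *Ifit3* by a log2 fold change of -0.72 ± 0.169 (adjusted p = 0.0229, edgeR), in a comparison that called 2.25% of all genes. With the 19 mice that comparison called *Ifit3* and *Bst2*, and 21.4% of all genes.

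*Bst2* was the member with the largest spread between mice. *Bst2*, chr8:71534255-71537456 on the minus strand, encodes tetherin, which holds budding viruses at the cell surface and is a surface marker of plasmacytoid dendritic cells. In HFD-fed fl/fl mice 1 to 6 it measured 177, 38.8, 22.8, 25.1, 124 and 13.7 CPM. In chow-fed fl/fl mice 1 to 6 it measured 15.2, 18.8, 47.4, 13.7, 31.1 and 18.1 CPM. Mice 1 and 5 on HFD stood far above all others, and the other 4 HFD-fed mice lay within the range of the chow-fed group. The means were 24 ± 13 CPM on chow and 66.9 ± 67.3 CPM on HFD (SD, n = 6 each). The log2 fold change was 1.48 ± 0.497, with a nominal p of 0.00669 and an adjusted p of 0.448 in edgeR, and was not called. Without HFD-fed fl/fl mouse 1 it was 0.90.

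The result for *Bst2* depended on which mice were used. With the 19 mice, 5 chow-fed and 3 HFD-fed fl/fl mice remained, and *Bst2* averaged 19.4 ± 6.9 and 113 ± 69.6 CPM. It was then called, at a log2 fold change of 2.54 ± 0.42 (adjusted p = 0.000454, edgeR), in a comparison that called 11.8% of 14863 genes, against 0.173% in the 24 mice. The 3 HFD-fed fl/fl mice left out in this set had the 3 lowest *Bst2* levels of their group. Between genotypes on HFD, *Bst2* was lower in AKO mice, which had 21, 26.2 and 78.1 CPM, at -0.96 ± 0.491 in the 24 mice (adjusted p = 0.35, edgeR) and -1.72 ± 0.395 in the 19 mice. Among the 24 it was -0.39 without HFD-fed fl/fl mouse 1 and -1.42 without HFD-fed AKO mouse 2. The 19-mouse value met the criteria of a call with an adjusted p of 0.125 (edgeR). The interaction of *Bst2* was -1.14 ± 0.693 in the 24 mice and -2.26 in the 19 mice, with adjusted p-values of 0.401 and 0.121 (edgeR), -0.56 without HFD-fed fl/fl mouse 1 and -1.59 without HFD-fed AKO mouse 2. The 19 mice called 0.565% of genes between genotypes on HFD and 0.680% in the interaction.

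The mice with the highest *Bst2* had the highest sums of T cell and B cell markers in their group, mouse 5 by a small margin. The 7 T cell markers summed to 85.6 and 52.9 CPM in HFD-fed fl/fl mice 1 and 5 and to 3.95 to 46.3 CPM in the other 4, with no marker at 0 in any. In chow-fed fl/fl mice the sum was 5.88 to 47.1 CPM. All 7 were higher on HFD in fl/fl mice, none called. The 5 B cell markers summed to 71.9 and 37 CPM in HFD-fed fl/fl mice 1 and 5, 3 to 30.3 CPM in the other 4 and 3.5 to 30.1 CPM in chow-fed fl/fl mice. All 5 were higher on HFD, none called, and *Cd79a* was at 0 in HFD-fed mouse 2 and in chow-fed mice 1 and 4. Of 6 genes tested from the plasmacytoid dendritic cell list 5 were lower and 1 higher on HFD in fl/fl mice, none called. The higher one was *Spib*, a transcription factor that B cells also use, at 1.95 (0.316 to 17.8 CPM on HFD and 0.412 to 4.48 CPM on chow), and it was at 3.24 in the 19 mice, where *Tcf4* was called at -0.99. The surface lectin *Siglech* lay at 0.774 to 2.4 CPM in the HFD-fed fl/fl group and 0.979 to 2.99 CPM in the chow-fed fl/fl group. Over the 24 mice, deviations of *Bst2* had r = -0.75 and rho = -0.73 with those of the plasmacytoid list sum (adjusted permutation p = 0.004 and 0.0127). That sum was 181 to 454 CPM in HFD-fed fl/fl mice, so *Siglech* and *Spib* were a small part of it. *Bst2* also had r = -0.64 with the endothelial sum and -0.63 with the adipocyte sum (adjusted permutation p = 0.0252 and 0.0439). With the T cell sum r was 0.64 and rho 0.63 (adjusted permutation p = 0.0151 and 0.0213). With the B cell sum r was 0.5 and rho 0.49 (adjusted permutation p = 0.0863 and 0.0788). The part of these cells in the *Bst2* values was not tested.

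*Isg15*, *Irf7* and *Usp18* varied between mice more than between groups. *Isg15* encodes a ubiquitin-like protein that is attached to other proteins after interferon. Its lowest, median and highest levels were 12.5, 19.5 and 32.4 CPM in chow-fed fl/fl, 16.2, 19.3 and 39.7 in chow-fed AKO, 15.2, 19.2 and 58.7 in HFD-fed fl/fl and 13.2, 20.3 and 23.4 in HFD-fed AKO mice. The medians lay close together, and the high values belonged to single mice. *Irf7*, the transcription factor that amplifies interferon production, had medians of 9.85, 9.26, 12 and 11.6 CPM in the same order of groups. Its highest mice were HFD-fed fl/fl mice 5 and 1 at 26.8 and 24.5 CPM, chow-fed AKO mouse 6 at 21.8 CPM and chow-fed fl/fl mouse 3 at 20.8 CPM. *Usp18*, the protease that takes ISG15 off proteins and damps the receptor, had medians of 2.75, 2.52, 2.66 and 2.37 CPM, with highs of 6.53 and 5.72 CPM in HFD-fed fl/fl mice 5 and 1 and of 5.8 CPM in chow-fed AKO mouse 6. By GRCm38 coordinates *Isg15* lies at chr4:156199455-156200796 and *Irf7* at chr7:141262706-141266481, both on the minus strand, and *Usp18* at chr6:121245906-121270917 on the plus strand. *Irf7* shares exonic positions with *Phrf1* and *Usp18* with *Gm44148*, each on the opposite strand, and whether the counting used strand is not given in the sources used here.

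None of these 3 genes was called in any comparison. For HFD against chow in fl/fl mice the log2 fold changes were 0.45 ± 0.315 for *Isg15*, 0.44 ± 0.333 for *Irf7* and 0.47 ± 0.32 for *Usp18*. In the 19 mice they were 1.12, 1.20 and 0.95. The first 2 then had adjusted p-values of 0.0124 and 0.0103 (edgeR), and none of the 3 met the study's criteria. HFD-fed fl/fl mice 3, 4 and 6, left out of the 19, had the lowest *Isg15* and *Irf7* levels of their group. Chow-fed fl/fl mouse 3, also left out, had the highest of its group for both. For AKO against fl/fl on HFD they were -0.57 ± 0.317, -0.47 ± 0.334 and -0.64 ± 0.323, with adjusted p-values of 0.382, 0.485 and 0.347 (edgeR).

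*Ifit1*, *Oasl2* and *Rsad2* complete the antiviral effectors. *Ifit1*, which binds foreign RNA caps, had lowest, median and highest levels of 12, 16.5 and 22.8 CPM in chow-fed fl/fl, 10, 15.3 and 40.4 in chow-fed AKO, 9.89, 21.5 and 36.8 in HFD-fed fl/fl and 9.11, 15.9 and 19.1 in HFD-fed AKO mice. The groups overlapped in every comparison. On HFD the AKO level was lower by a log2 fold change of -0.67 ± 0.309, a nominal p of 0.041 and an adjusted p of 0.325 in edgeR. *Ifit1* lies at chr19:34640871-34650009 and *Oasl2* at chr5:114896936-114912234, both on the plus strand, and *Rsad2* at chr12:26442746-26456452 on the minus strand. *Oasl2*, a member of the oligoadenylate synthetase-like family, had means of 15.7 ± 3.91, 15.3 ± 6.78, 15.3 ± 4.56 and 15.3 ± 4.31 CPM in the 4 groups (SD, n = 6 each). Its log2 fold changes in the diet and genotype comparisons lay between -0.04 and 0.00. Their SE was 0.251 or 0.252, which sets the size of difference that these mice could show. *Rsad2* encodes viperin, an enzyme that makes an antiviral nucleotide. It had medians of 40.2, 33.6, 33.4 and 24.9 CPM, with 51 CPM in HFD-fed AKO mouse 6 and 23.8 to 28.8 CPM in the other 5 of that group. Its diet difference was -0.38 ± 0.202 in AKO mice (adjusted p = 0.162, edgeR) and -0.21 ± 0.202 in fl/fl mice. The value in AKO mice was -0.60 without HFD-fed AKO mouse 6 (adjusted p = 0.0186, edgeR) and -0.19 without chow-fed AKO mouse 6.

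**Figure D2:**
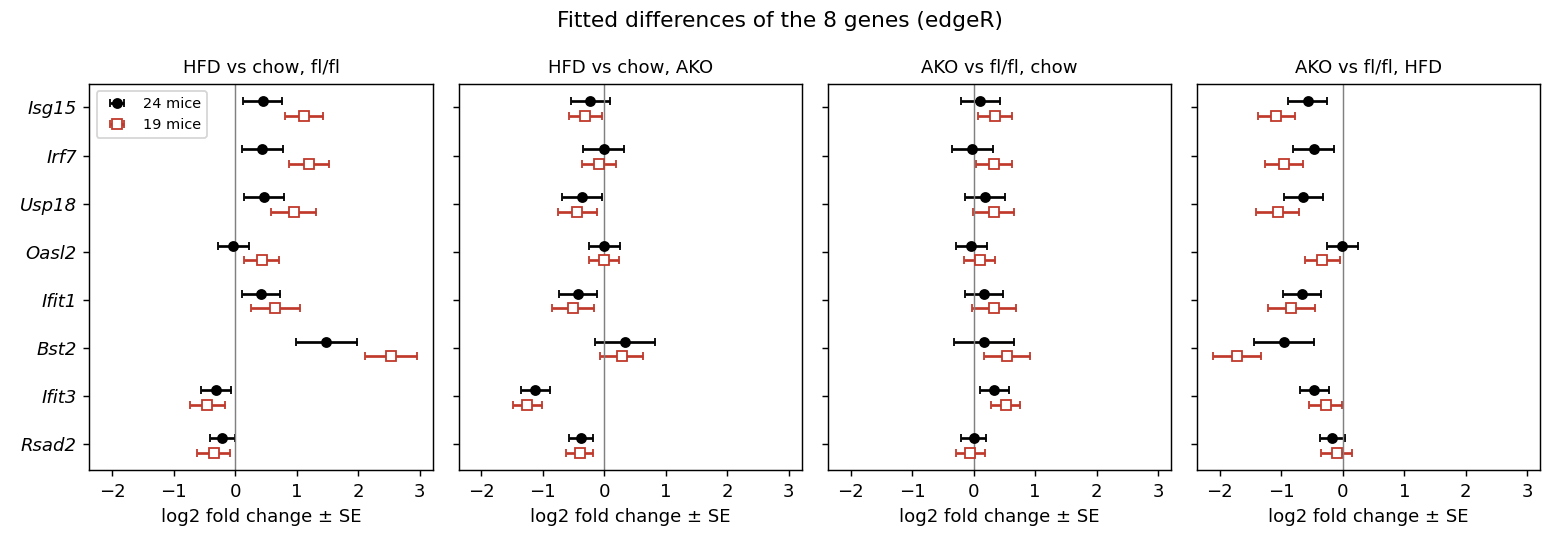
Log2 fold changes (x axis) with SE as bars from edgeR for the 8 genes in 4 comparisons, with 24 mice as black circles and 19 mice as open red squares. For HFD against chow in fl/fl mice *Bst2* moves from 1.48 to 2.54, and in AKO mice *Ifit3* lies at -1.12 and -1.25.

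As a group, 0 of the 8 genes were called for HFD against chow in fl/fl mice, where edgeR called 0.173% of all genes. At a nominal p under 0.05 there was 1, *Bst2*, against 9.01% of all genes, and limma-voom and DESeq2 also called 0. The median log2 fold change of the 8 was 0.43, beside -0.01 for all genes tested, with 5 higher and 3 lower. In the 19 mice 4 of the 8 had a nominal p under 0.05, against 41.4% of all genes, and the median was 0.80 beside -0.03. In AKO mice the median was -0.30 beside 0.00, with 2 higher and 6 lower, and 1 had a nominal p under 0.05 against 39.8% of all genes. Between genotypes on chow edgeR called 0 of the 8 and 0.113% of all genes, and 0 of the 8 had a nominal p under 0.05, against 5.85% of all genes. There the median was 0.14 beside 0.00. On HFD edgeR called 0 of the 8 and 0.173% of all genes. All 8 were lower in AKO mice, from -0.96 for *Bst2* to -0.01 for *Oasl2*, with a median of -0.52 beside -0.03, and 1 had a nominal p under 0.05 against 14.8% of all genes. The summed level of the 8 had close medians, 147 CPM in fl/fl and 144 CPM in AKO mice, with maxima of 340 and 177 CPM. With 1 library left out *Isg15* lay between -0.73 and -0.25, the latter without HFD-fed fl/fl mouse 5. *Bst2* lay between -1.42 and -0.39, the latter without HFD-fed fl/fl mouse 1. All 8 were also lower in the 19 mice, with a median of -0.90 beside 0.03, and 5 had a nominal p under 0.05 against 11.1% of all genes. The 19 are part of the same 24 mice and give no independent support. HFD-fed fl/fl mice 3, 4 and 6, left out there, lay lowest in their group on average over the 8 genes (mean standardized deviations of -0.45, -0.66 and -0.73). In the 24 mice all 7 adipocyte markers (median -0.85), all 5 endothelial markers (-0.36) and all 4 mesothelial markers (-0.92) were lower in HFD-fed AKO mice too, none called. Of 9 macrophage markers 8 were higher (median 0.27), and of 7 T cell markers 6 were lower (median -0.12), none called. In the 19 mice the medians were 0.16 for adipocyte, 0.36 for endothelial, -0.64 for mesothelial, -0.09 for macrophage and -0.94 for T cell markers. The part of these cells in the shift of the 8 genes was not tested. Since these comparisons share groups, their values are not independent of each other.

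For the interaction of diet and genotype edgeR called 0 of the 8 genes, and 0.386% of all genes. Of all its calls 19 were higher and 39 lower with TMM scaling, and 8 and 45 with RLE size factors. Among the 8 genes 7 had a lower diet response in AKO than in fl/fl mice and *Oasl2* a slightly higher one, at 0.03, which was -0.01 with RLE size factors. The median was -0.74 beside -0.03 for all genes, and *Ifit3* was the 1 gene with a nominal p under 0.05, against 15.6% of all genes. All 8 were lower in the 19 mice, with a median of -1.23 beside 0.04, and 6 had a nominal p under 0.05 against 12.2% of all genes. The 19 mice lack the HFD-fed fl/fl mice that lay lowest in their group over the 8 genes. Averaged over diets, edgeR called 0 of the 8 between genotypes and 0.0333% of all genes, and 0 had a nominal p under 0.05, against 4.60% of all genes.

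Across mice of the same group, 5 of the genes varied together. Deviations of log2 CPM from the group mean were compared for all 28 pairs over 24 mice, with 100000 permutations of mice within groups and p-values adjusted over the 28 pairs. Pearson's r ran from -0.28 to 0.89 with a median of 0.425, 26 pairs were positive and 12 had an adjusted p of at most 0.05. *Irf7* and *Oasl2* had r = 0.89 (adjusted permutation p = 9.33e-05) and a Spearman's rho of 0.86 (adjusted permutation p = 0.00028). *Irf7* and *Usp18* had r = 0.89 and rho = 0.86 with the same adjusted values. *Isg15* and *Irf7* had r = 0.86 (adjusted permutation p = 9.33e-05) and rho = 0.83 (adjusted permutation p = 0.00028). Without the 2 mice farthest from the median of the first gene, r was 0.85, 0.83 and 0.80 for these 3 pairs, and in the 19 mice it was 0.90, 0.92 and 0.81. All 10 pairs among *Isg15*, *Irf7*, *Ifit1*, *Oasl2* and *Usp18* passed, with r from 0.66 to 0.89.

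*Bst2* joined this set in part, and *Ifit3* and *Rsad2* did not. *Bst2* passed with *Isg15* (r = 0.79, rho = 0.78, adjusted permutation p = 0.000436 and 0.000747) and with *Irf7* (r = 0.67, rho = 0.59, adjusted permutation p = 0.0063 and 0.0223). Without the 2 farthest mice these were 0.78 and 0.63. *Ifit3* and *Rsad2* had no pair that passed: the highest r of *Ifit3* was 0.41, with *Ifit1*, and *Rsad2* had 0.07 with *Isg15* and -0.28 with *Bst2*. Matches to the response element did not follow this division: of the 5 genes that varied together *Isg15* and *Ifit1* carry 3 each and *Irf7* and *Oasl2* none in their promoter windows, and *Ifit3* and *Rsad2* carry 3 and 1.

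**Figure D3:**
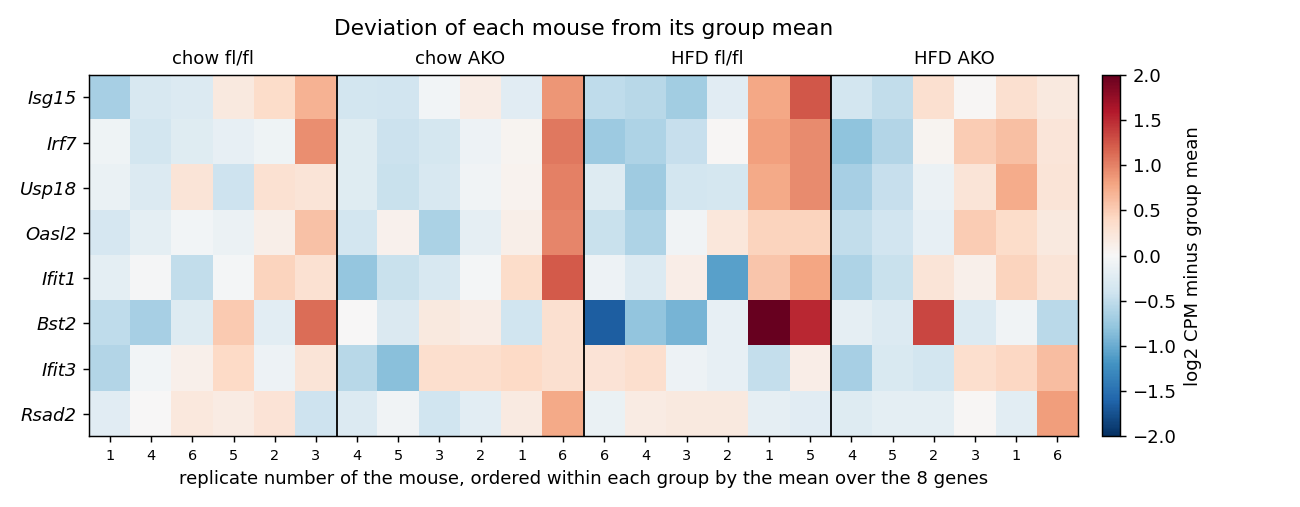
Deviation of log2 CPM from the group mean for each gene (rows) in each mouse (columns, ordered within a group by the mean over the 8 genes, replicate number below). Chow-fed AKO mouse 6 and HFD-fed fl/fl mice 1 and 5 are high in *Isg15*, *Irf7*, *Usp18*, *Oasl2* and *Ifit1* together.

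**Figure D4:**
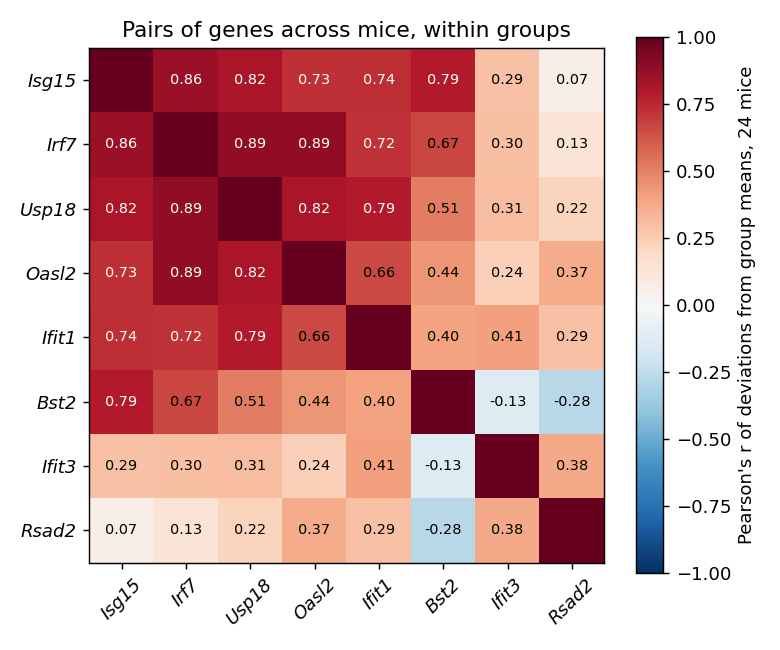
Pearson's r of within-group deviations for the 28 pairs of genes over 24 mice. The block of *Isg15*, *Irf7*, *Usp18*, *Oasl2* and *Ifit1* holds values of 0.66 to 0.89, and *Rsad2* lies between -0.28 and 0.38.

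The mice high in this set were also high in T cell markers and in targets of interferon gamma. Chow-fed AKO mouse 6 had 116 CPM summed over the 7 T cell markers, and the other 5 of its group had 6.18 to 18.1 CPM. Its summed level of 18 interferon gamma response genes was 2810 CPM, and 691 to 810 CPM in the other 5. HFD-fed fl/fl mice 1 and 5 had 1850 and 1580 CPM in that list, and the other 4 had 675 to 965 CPM. Over 24 mice, the T cell sum correlated with *Oasl2* at r = 0.86 and rho = 0.82 (adjusted permutation p = 0.00022 and 0.00044) and with *Irf7* at r = 0.80 and rho = 0.71 (adjusted permutation p = 0.00138 and 0.0106), and with *Ifit3* at -0.04 and *Rsad2* at 0.13. Without the 2 mice farthest from the median, r for *Oasl2* and *Irf7* was 0.80 and 0.71. In all, 88 relations between a gene and a list were computed, and 27 had an adjusted permutation p of at most 0.05. The interferon gamma list gave r = 0.89 and rho = 0.84 with *Irf7* and r = 0.86 and rho = 0.89 with *Isg15* (adjusted permutation p = 0.00022 for each r and 0.00044 for each rho). The part of T cells in the covariation was not tested.

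The 10 genes outside the set whose deviations were most like the mean standardized deviation of the 8, over 24 mice and among 15012 genes, were *Gm4951* and *Iigp1* (r = 0.94 each), *Gbp3* (0.90), *AW112010* (0.89), *Cxcl9*, *Klrk1* and *Slamf1* (0.88 each), *Parp14* (0.87), *Clec9a* and *Tent5c* (0.86 each). *Iigp1*, *Gbp3* and *Cxcl9* are on the interferon gamma list, *Parp14* is on the list of other interferon-stimulated genes, *Klrk1* encodes a receptor of natural killer and T cells, and *Clec9a* marks a class of dendritic cells. With the 19 mice 4 of the 10 stayed among the first 10, and by Spearman correlation 7. Over the 41 other interferon-stimulated genes tested the median r was 0.54, beside 0.01 for all genes. These correlations are a description over mice that share their group means.

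The wider pathway was followed with lists of other genes. Of 43 other interferon-stimulated genes 42 were in the table and 41 were tested. For HFD against chow in AKO mice 6 of the 41 were called lower and 0 higher, beside 2.83% and 1.29% of all genes, and the median was -0.16. The 6 were *Slfn5* at -2.52 ± 0.648, *Xaf1* at -2.01 ± 0.409, *Ifit2*, *Ddx60* at -1.20 ± 0.254, *Parp9* at -1.08 ± 0.22 and *Dtx3l* at -1.04 ± 0.217. *Xaf1*, a promoter of cell death, averaged 6.82 ± 2.05 CPM in chow-fed AKO and 1.7 ± 0.937 CPM in HFD-fed AKO mice (SD, n = 6 each). *Slfn5*, a Schlafen family gene, averaged 47.6 ± 11 and 8.3 ± 9.88 CPM. *Parp9* and *Dtx3l*, which share a promoter and whose proteins form a complex, moved by similar amounts. The other 35 did not pass, among them 16 that were higher on HFD. In fl/fl mice 0 of the 41 were called with 24 mice, 0 had a nominal p under 0.05 in edgeR, and with the 19 mice 3 were called higher, *Zbp1* at 2.03, *Phf11b* at 1.59 and *Lgals3bp* at 0.73, and 2 lower, *Slfn5* at -2.71 and *Xaf1* at -1.42, in a comparison that called 5.49% of all genes higher and 6.28% lower. With those mice *Slfn5* and *Xaf1* were thus lower on HFD in both genotypes.

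Between genotypes on HFD 0 of the 41 were called, and 10 were lower and 0 higher at a nominal p under 0.05, beside 8.99% and 5.83% of all genes. *Xaf1* was at -1.27 ± 0.406 and *Slfn5* at -1.69 ± 0.634 there (adjusted p = 0.291 and 0.293, edgeR). In the 19 mice they were at -0.47 and 0.07, and 6 genes were lower at a nominal p under 0.05, against 5.83% of all genes. With those mice *Zbp1*, a sensor of unusual nucleic acid, was called at -1.95, with an adjusted p of 0.128 (edgeR). Of the 18 interferon gamma response genes, 2 were called lower on HFD in AKO mice, *Ciita*, the master regulator of MHC class II genes, at -1.98 ± 0.417 and *Gbp7* at -1.64 ± 0.358. With limma-voom, and with the 2 groups fitted alone, 1 of the 18 was called. Between genotypes on HFD 0 of the 18 were called, with 7 lower and 1 higher at a nominal p under 0.05 and a median of -0.88. With the 2 groups fitted alone 1 was called. Among the 19 mice 11 were lower at a nominal p under 0.05, the median was -1.18, and *Gbp5* was called at -2.29 (adjusted p = 0.0981, edgeR). Their interaction called 4, *Iigp1*, *Gbp5*, *Tap1* and *Gbp2*, all lower, at -3.54, -3.48, -2.57 and -2.16. It called 0.680% of all genes, and 0 genes had an adjusted p of at most 0.05 there (edgeR). The 19 mice keep chow-fed AKO mouse 6 and HFD-fed fl/fl mice 1 and 5, which had the highest sums of this list in their groups. With 24 mice less chow-fed AKO mouse 6, which enters the fit on HFD through the shared spread, 2 of the 18 were called between genotypes on HFD, and without HFD-fed AKO mouse 6 so were 2 of the 41. On chow the same list had 16 of 18 genes higher in AKO mice and 0 called. Its summed level on chow had a median of 770 CPM in AKO mice and 838 CPM in fl/fl mice. Chow-fed AKO mouse 6 stood apart at 2810 CPM.

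None of the 13 type I interferon genes listed was in the table, which held no gene with fewer than 72 counts in all, so their level is not analysed here. Of the 7 genes from receptor to ISGF3, 0 were called with 24 mice in the diet and genotype comparisons. *Ifnar1* was at -0.59 ± 0.221 and *Tyk2* at 0.72 ± 0.278 for HFD against chow in AKO mice, and neither was called. Of the 14 nucleic acid sensing genes tested 0 were called with 24 mice in these comparisons, and at a nominal p under 0.05 in AKO mice 4 were higher on HFD, among them *Tlr7* at 1.03 and *Mavs* at 0.68, and 2 lower, *Ifih1* at -0.45 and *Ddx58* at -0.28. Of all genes 18.2% were higher and 21.6% lower at that level. With the 19 mice *Mavs*, *Ticam1*, *Sting1* and *Myd88* were called higher on HFD in fl/fl mice, and *Tyk2* among the receptor genes, beside 5.49% of all genes. Of 7 genes that restrain the response or run the ISG15 cycle, *Ube2l6*, the enzyme that passes ISG15 to its targets, was called lower on HFD in AKO mice at -0.97 ± 0.245 (adjusted p = 0.0185, edgeR), a call lost without chow-fed AKO mouse 4 or 6, without any 1 of HFD-fed AKO mice 1 to 5, and with limma-voom.

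**Figure D5:**
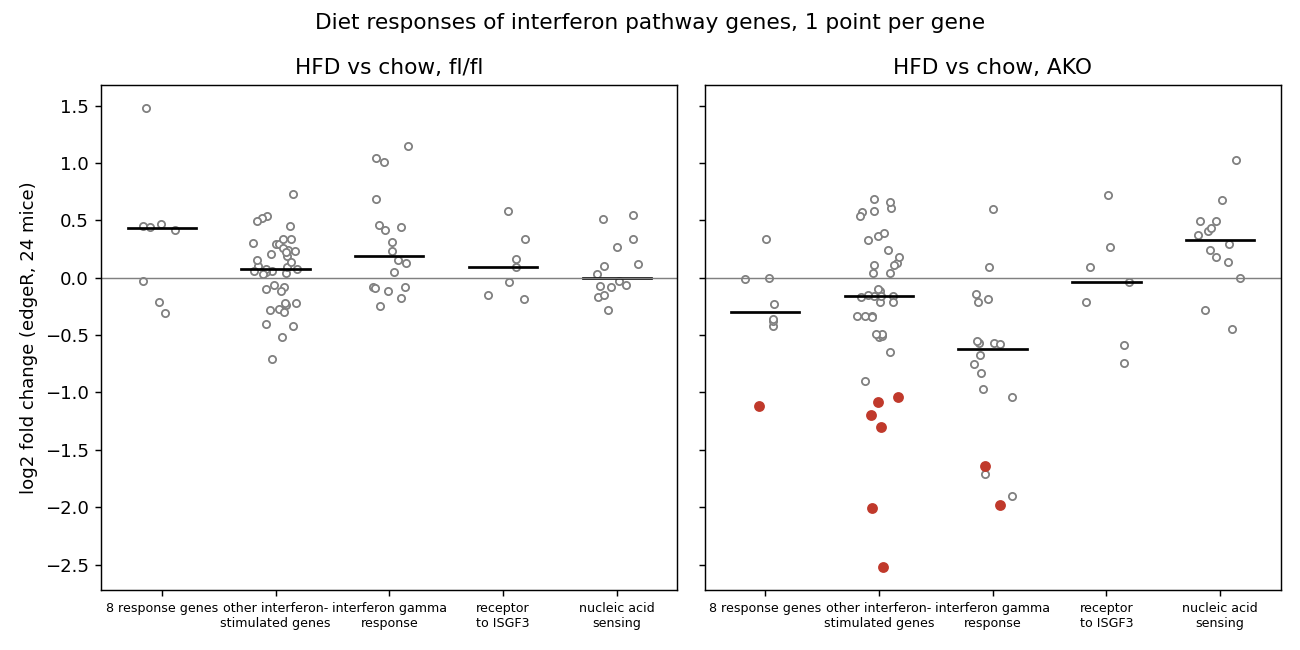
Log2 fold change of HFD against chow (edgeR, 24 mice, y axis) for the 8 response genes and 4 lists of pathway genes, in fl/fl mice at left and AKO mice at right. Each point is a gene, red points were called, the black line is the median of a list, and all red points lie below 0 in AKO mice.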

How the data were processed

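QuantSeq 3′ tags of eWAT RNA from 24 mice were aligned and counted by the authors with the Lexogen QuantSeq pipeline on Bluebee, on GRCm38, and the counts were deposited as they came. The authors also deposited these values as a normalized signal, with each library divided by its size factor (per the labels, DESeq2 1.30 in R 4.0.3), from which symbols were taken. Groups came from the labels, 6 mice each, and no 2 libraries were alike within counting noise. The analysis used edgeR 4.0.16 under R 4.3.3. Genes that reached 1 CPM in 3 or more libraries were kept, scaled by TMM and fitted with 1 coefficient per group and the quasi-likelihood test, and p-values were adjusted by the Benjamini-Hochberg method over all genes. The pipeline called 200 of 200 changed genes among 14592 in simulated counts for HFD against chow in AKO mice. The planted changes were large, lay in well-counted genes and had the same spread for every gene. The simulation thus checks the code and does not show which changes the 24 mice could miss. Symbols without one in the deposited table were filled from release 21 of GENCODE for 2616 genes.

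The 8 genes and all lists were chosen with earlier results of these data known. Named are the 8 genes, *Lama4*, listed genes that were called, up to 3 genes per list with the lowest nominal p in a comparison, and the 10 genes most like the 8; other names were chosen after their values were seen. Marker lists for B cells, neutrophils, endothelium and mesothelium were also fitted: in the diet comparison of AKO mice the 1 gene called among them was *Msln*, at -2.36. Alternatives were limma-voom (limma 3.58.1), DESeq2 1.42.0, RLE size factors, no filter, the replicate number as a block, separate fits of each pair of groups, adjusted p-values of at most 0.05, the 19 mice and each library left out. Log2 CPM used a prior count of 2. Depth limits precision, most for *Usp18*, and no gene of the 8 was at 0 in any library. Replicate numbers did not pair the mice: of 36 pairs of same-numbered libraries 15 had deviations that correlated over 0.1. The median r was 0.00112 over these 36 pairs and -0.0105 over pairs from different groups with different numbers.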

Additional observations from a re-analysis of the deposited data

Results flagged for a closer look

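Of 32 sets of 6 mice (8 genes in 4 groups), 5 held a highest mouse that stood apart from the rest of its group by Dixon's criterion, and chance gives about 1 in 20 sets. *Irf7* was at 20.8 CPM in chow-fed fl/fl mouse 3, where the next mouse had 10.2 CPM. *Irf7* was at 21.8 CPM in chow-fed AKO mouse 6, where the next had 10.9 CPM. *Usp18* was at 5.8 CPM in the same mouse, where the next had 2.98 CPM. *Rsad2* was at 51 CPM in HFD-fed AKO mouse 6, where the next had 28.8 CPM. *Bst2* was at 78.1 CPM in HFD-fed AKO mouse 2, where the next had 29.3 CPM.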

How the results depend on the processing

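The call of *Ifit3* for HFD against chow in AKO mice was kept in all 31 alternatives, 24 of them with 1 library left out (adjusted p 0.00407 to 0.0375, edgeR). Fits without a fl/fl mouse bear on this call only through the shared spread, filter and scaling. Of the AKO mice, the 19-mouse set lacks only chow-fed mouse 5. The number of the 8 genes called changed with the 19 mice only, to 1 for HFD against chow in fl/fl mice (*Bst2*, 2.54), 1 for AKO against fl/fl on HFD (*Bst2*, -1.72), 1 for the interaction (*Bst2*, -2.26) and 2 for the average over genotypes (*Ifit3* and *Bst2*, the latter 1.41), and the cause was not tested. Of 1712 repeated log2 fold changes 102 changed sign, all of values that were not called in any setting where they did so. With limma-voom *Rsad2* was at -0.03 for AKO against fl/fl on chow and *Oasl2* at 0.01 for the average over genotypes. With DESeq2, with RLE size factors and with only the 2 groups fitted *Oasl2* was at -0.01 for HFD against chow in AKO mice, and at -0.01 for the interaction with the first 2 of these. With only the 2 groups fitted *Oasl2* was at 0.01 for HFD against chow in fl/fl mice. With the 19 mice *Oasl2* was at 0.43 for HFD against chow in fl/fl mice, 0 in AKO mice, 0.21 averaged over genotypes, -0.43 for the interaction and 0.10 for AKO against fl/fl on chow, where *Irf7* was at 0.33 and *Rsad2* at -0.05, and *Ifit3* at 0.12 for the average over diets.

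Leaving out 1 library changed the sign of 18 results, each 0.34 or less in size with all mice, with these ranges. For HFD against chow in fl/fl mice, *Oasl2* -0.12 to 0.11. For HFD against chow in AKO mice, *Isg15* -0.31 to 0, *Irf7* -0.14 to 0.29, *Oasl2* -0.11 to 0.26, *Bst2* -0.1 to 0.45. For AKO against fl/fl on chow, *Isg15* -0.13 to 0.27, *Irf7* -0.32 to 0.24, *Ifit1* -0.18 to 0.31, *Oasl2* -0.31 to 0.1, *Rsad2* -0.19 to 0.08, *Usp18* -0.09 to 0.28. For AKO against fl/fl on HFD, *Oasl2* -0.15 to 0.09. For the interaction, *Oasl2* -0.11 to 0.28. For the average over genotypes, *Isg15* -0.06 to 0.23, *Ifit1* -0.09 to 0.18, *Oasl2* -0.07 to 0.13, *Usp18* -0.06 to 0.21. For the average over diets, *Oasl2* -0.17 to 0.05.

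With the replicate number as a block, which does not pair the mice (5 of 24 libraries correlated best with their own number), edgeR called 139 genes higher and 318 lower for HFD against chow in AKO mice, against 194 and 425 without it; the calls among the 8 genes did not change, 1 interferon gamma response gene was called between genotypes on HFD against 0, and *Rsad2* was at -0.03 on chow and *Ifit1* at 0 averaged over genotypes. Over all genes the 19 mice called 816 higher and 934 lower for HFD against chow in fl/fl mice, against 16 and 10, and 909 and 1423 in AKO mice; DESeq2 called 410 and 905 there. Counts in other comparisons and lists moved by over 1.5 times in some settings as well. The 24 mice can miss changes of the size seen for *Bst2*, where the SE is 0.497.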
